A study of Mus musculus with 24 samples.

Results

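The genes described are 8 members of the Notch pathway on mouse arrays, namely the receptors Notch1, Notch2 and Notch3, the DNA-binding factor Rbpj, and the target genes Nrarp, Hes1, Dtx1 and Ptcra. They were taken by symbol from the platform's annotation, using probe sets annotated to that symbol and no other, which gave 15 probe sets for 8 genes. The table tested held 18193 genes and 45037 non-control probe sets. RNA of 4 sorted blood progenitor populations was measured on 24 Affymetrix arrays, 3 for each population and genotype. The wild-type (WT) mice carried an Ikaros-based GFP reporter (line B-p-GFP-C, C57BL/6 x C3H). The knockout (KO) mice were null for Ikaros (line I74, C57BL/6 x 129SV), the zinc finger transcription factor encoded by Ikzf1, and carried the same reporter, so all 8 groups contain the transgene. The strain background and the genotype cannot be told apart in these groups. Cells were sorted as LSK (in common usage lineage-negative, Sca-1+, Kit+) or LK (lineage-negative, Kit+) and by GFP. The labels call LSK GFPneg-lo stem cells (HSC), LSK GFPhi lymphoid-primed multipotent progenitors (LMPP), LK GFPneg megakaryocyte and erythroid progenitors (MEP) and LK GFPhi granulocyte and monocyte progenitors (GMP). In the KO the gates read a reporter of the gene that is missing. The ages of the mice, and whether an array holds RNA of 1 animal or a pool, are not given in the sources used here.

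Notch receptors are membrane proteins that are cut when they meet a Delta or Jagged ligand on a neighbouring cell. The freed intracellular part moves to the nucleus, joins RBPJ (also called CSL) and Mastermind proteins on DNA, and turns RBPJ from a repressor into an activator. In blood the pathway is best known for directing lymphoid progenitors to the T cell lineage in the thymus. Ikaros binds DNA through the core TGGGAA, which is also part of the RBPJ recognition sequence GTGGGAA.

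The sequence just before the start site is shown for the 3 genes whose level differed between KO and WT (Notch1, Notch2 and Nrarp) and for the 2 that hold the shared core (Rbpj and Ptcra). The sequences are the 250 bases upstream of the RefSeq start on GRCm38.p6, written 5′ to 3′ along the gene's strand, with a match to TGGGAA on either strand in capitals. RefSeq promoter entries were matched for 7 of the 8 genes, and for Hes1 none was matched. Both Rbpj entries lie inside the gene's span of 53555779 to 53657445, and the bases before 53555779 were not searched. The regions are chr2:26503823-26504072 (minus strand) for Notch1, chr3:98013288-98013537 (plus) for Notch2, chr2:25180508-25180757 (plus) for Nrarp, chr5:53590096-53590345 (plus, the first of 2 Rbpj entries) and chr17:46763713-46763962 (minus) for Ptcra.
Notch1: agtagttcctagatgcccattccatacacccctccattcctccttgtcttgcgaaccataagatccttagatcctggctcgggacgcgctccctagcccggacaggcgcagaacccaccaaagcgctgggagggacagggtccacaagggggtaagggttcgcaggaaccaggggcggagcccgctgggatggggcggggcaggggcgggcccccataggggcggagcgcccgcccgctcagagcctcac
Notch2: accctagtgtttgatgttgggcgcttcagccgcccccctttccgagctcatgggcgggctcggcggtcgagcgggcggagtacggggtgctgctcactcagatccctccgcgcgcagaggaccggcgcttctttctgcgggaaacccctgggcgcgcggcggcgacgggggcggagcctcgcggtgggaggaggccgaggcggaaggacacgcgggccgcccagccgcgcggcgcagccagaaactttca
Nrarp: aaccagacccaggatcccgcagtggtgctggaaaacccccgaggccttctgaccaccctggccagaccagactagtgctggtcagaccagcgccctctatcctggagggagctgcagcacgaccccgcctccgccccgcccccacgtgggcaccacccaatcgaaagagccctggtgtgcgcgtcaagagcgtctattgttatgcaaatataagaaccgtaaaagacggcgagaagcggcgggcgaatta
Rbpj: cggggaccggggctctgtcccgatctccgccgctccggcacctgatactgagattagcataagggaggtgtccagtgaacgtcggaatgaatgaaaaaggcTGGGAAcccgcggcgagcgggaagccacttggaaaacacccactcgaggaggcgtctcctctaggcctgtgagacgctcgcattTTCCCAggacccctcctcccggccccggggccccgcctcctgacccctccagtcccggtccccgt
Ptcra: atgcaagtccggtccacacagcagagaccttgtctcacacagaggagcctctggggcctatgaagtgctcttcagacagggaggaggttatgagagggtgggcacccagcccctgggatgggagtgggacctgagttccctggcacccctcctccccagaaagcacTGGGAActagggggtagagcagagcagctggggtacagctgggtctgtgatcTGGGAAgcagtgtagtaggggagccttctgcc

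The core TGGGAA lay on both strands of the first Rbpj promoter, at bases -149 to -144 on the gene's strand and -65 to -60 on the other. In Ptcra it lay at -84 to -79 and at -32 to -27, both on the gene's strand. The second Rbpj entry overlaps the first. Its only match, at -205 to -200 on the other strand, is the same site as that at -65 to -60 of the first. The search ran over each whole RefSeq promoter entry, 250 bases before to 50 after the start, and the entries of Notch1, Notch2, Notch3, Nrarp and Dtx1 did not hold these letters. Among 32851 mouse promoter entries of the same 300 bases, 8397 (25.6%) held TGGGAA and 2097 (6.38%) held the longer GTGGGAA, which includes the shorter core. None of the member entries held GTGGGAA. A match of letters is a description of the sequence and not a binding site.

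The deposited values are log2 signals of the arrays, so a difference of 1 is a 2-fold change, and a value is compared between arrays for 1 probe set only. Ikzf1 read 10.99 to 11.99 on the 12 WT arrays and 6.51 to 8.88 on the 12 KO arrays. Arrays of a group correlated at r = 0.979 to 0.996 across genes. Averaged over each marker list, the 6 stem cell markers were highest in LSK GFPneg-lo (10.9 to 11.2 on the WT arrays), the 6 erythroid markers in LK GFPneg (12.4 to 12.5) and the 6 granulocyte and monocyte markers in LK GFPhi (11.6 to 12.6). The 7 early lymphoid markers were highest in WT LSK GFPhi (9.37 to 9.63). Kit was read at 10.6 to 12.9 on all arrays, and Ly6a, which encodes Sca-1, had no usable probe set. The 13 T cell markers averaged 6.34 to 6.83 on all arrays. The Y-linked gene Eif2s3y was at 7.88 to 10.4 on the WT arrays. On the KO arrays it was at 3.99 to 4.14 on 7 and at 7.20 to 8.33 on the other 5, so it moved with the genotype. All tests below are limma tests with p-values adjusted by Benjamini and Hochberg over all genes, a gene was called at an adjusted p below 0.05, and errors after a difference are standard errors. With 3 arrays a group the p-values measure the spread between these arrays.

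Notch1 (chromosome 2, 26457902 to 26503822, GRCm38.p6) encodes the receptor that early T cell development depends on. In WT its RNA was high in both GFPhi populations and low in the erythroid-marked LK GFPneg cells. Loss of Ikaros went with lower Notch1 in the 2 GFPhi populations, by 2.17-fold in LSK GFPhi and 2.68-fold in LK GFPhi. In LK GFPneg the arrays of the genotypes overlapped.

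The 3 WT arrays read 10.31, 10.30 and 10.66 in LSK GFPneg-lo, 11.56, 11.91 and 11.64 in LSK GFPhi, 7.82, 7.36 and 8.80 in LK GFPneg, and 11.21, 11.88 and 11.25 in LK GFPhi. The WT groups did not overlap, except that LSK GFPhi and LK GFPhi shared their range. LSK GFPhi exceeded LSK GFPneg-lo by 1.28 ± 0.28 (adjusted p = 0.00862), and LK GFPhi exceeded LSK GFPneg-lo by 1.02 ± 0.28 (adjusted p = 0.019). LK GFPneg was lower than LSK GFPneg-lo by 5.4-fold (-2.43 ± 0.28, adjusted p = 1.58e-06). The widest gaps were LSK GFPhi over LK GFPneg, 13.1-fold (adjusted p = 3.59e-09), and LK GFPhi over LK GFPneg, 11-fold (adjusted p = 1.05e-08). The difference between the GFPhi populations was -0.26 with a 95% interval of -0.85 to 0.33, so their order is not settled. With the mean of both Notch1 probe sets the LK GFPneg minus LSK GFPneg-lo difference was smaller (-1.40). The gaps of LSK GFPhi and LK GFPhi over LK GFPneg were then 2.31 and 2.32 on the log2 scale, against 3.71 and 3.45, and all 3 calls were kept. Leaving out 1 array ended 2 of these calls. The LSK GFPhi over LSK GFPneg-lo call was lost without WT LSK GFPhi replicate 2 (adjusted p = 0.052), and the LK GFPhi over LSK GFPneg-lo call was lost without WT LSK GFPneg-lo replicate 1 or 2 or WT LK GFPhi replicate 2 (adjusted p = 0.07 to 0.084).

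In the KO the arrays read 10.24, 9.90 and 9.995 in LSK GFPneg-lo, 10.60, 10.48 and 10.68 in LSK GFPhi, 8.27, 8.38 and 7.42 in LK GFPneg, and 9.90, 10.21 and 9.96 in LK GFPhi. Every KO array of the GFPhi populations was below every WT array of the same gate. In LK GFPhi the KO minus WT difference was -1.42 ± 0.28 (95% interval -2.01 to -0.83, adjusted p = 0.00255). This call was kept in all 15 alternatives run, with differences of -1.55 to -1.02. In LSK GFPhi it was -1.12 ± 0.28 (95% interval -1.71 to -0.53, adjusted p = 0.0226). That call was lost in 7 of 15 alternatives, among them the mean of both Notch1 probe sets (-0.71, adjusted p = 0.07) and, without WT LSK GFPhi replicate 2 or 3 or any 1 of the KO arrays, adjusted p of 0.059 to 0.098. In LSK GFPneg-lo the KO arrays were also all below the WT arrays, but the difference of -0.38 ± 0.28 was not called (adjusted p = 0.83). In LK GFPneg it was 0.03 with a 95% interval of -0.56 to 0.62.

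The KO difference in LK GFPhi minus that in LK GFPneg was -1.45 ± 0.40 for Notch1 (adjusted p = 0.0614), and was thus not called. Same-numbered arrays deviated together in this comparison, but KO replicate 3 read Eif2s3y at 7.74 in LK GFPhi and 4.14 in LK GFPneg. With the replicate number as a block the adjusted p was 0.046. It was 0.043 with array weights and 0.036 with each array centred on its median. Without WT LK GFPneg replicate 3 the value was -1.86 (adjusted p = 0.0035), and without KO LK GFPneg replicate 3 it was -1.75 (adjusted p = 0.016). For LSK GFPhi minus LSK GFPneg-lo the same contrast was -0.74 ± 0.40, which was not called.

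The other Notch1 probe set, 1418633_at, read 7.48, 8.45 and 7.81 in WT LSK GFPhi against 7.41, 7.75 and 7.67 in the KO. In LK GFPhi it read 7.70, 8.96 and 7.89 in WT and 7.23, 7.94 and 7.52 in the KO. The groups overlapped in both gates, and the KO differences of -0.30 ± 0.27 and -0.62 ± 0.27 were not called over all probe sets (adjusted p = 0.92 and 0.18). In WT it followed the same gap between LK GFPhi and LK GFPneg (1.18 ± 0.27, adjusted p = 0.00488; 13.4% of all probe sets were called there).

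**Figure D1:**
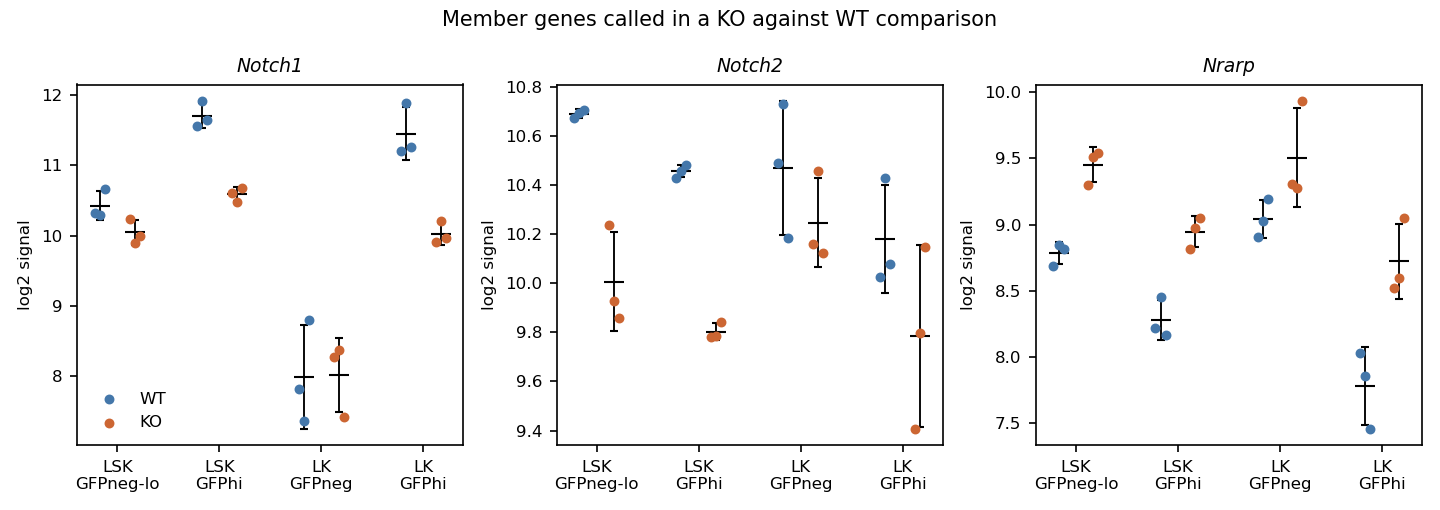
Log2 signal of Notch1, Notch2 and Nrarp (the probe set tested for each) on every array, by population, with WT in blue and KO in orange; points are arrays, wide bars the group means and error bars 1 SD (n = 3), and each panel has its own axis. The 3 KO arrays of Notch1 in LK GFPhi lie at 9.90 to 10.21 against 11.21 to 11.88 in WT, and Nrarp lies higher in the KO in all 4 populations.

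Early lymphoid markers moved with Notch1. All 7 measured were lower in KO LSK GFPhi, where their mean was 7.74 to 8.14 against 9.37 to 9.63 in WT, and 6 of 7 were lower in KO LK GFPhi (6.94 to 8.08 against 9.06 to 9.25). In LK GFPneg none of the 7 was called, and the means were 6.02 to 6.15 in the KO and 6.08 to 6.16 in WT. The stem cell marker mean was higher in the KO in LSK GFPhi (10.04 to 10.27 against 8.98 to 9.38) and in LK GFPhi (9.22 to 9.41 against 7.49 to 7.996). Of these 6 markers only 2 were called higher in LSK GFPhi and 3 in LK GFPhi, with median differences of 0.21 and 0.91. In these bulk arrays fewer cells of a type and less RNA per cell cannot be told apart, and the part of these markers in the Notch1 result was not tested.

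Notch2 (chromosome 3, 98013538 to 98150367), the receptor known in blood for marginal zone B cells, was spread far less over the WT populations than Notch1. Its RNA was 1.61-fold lower in KO LSK GFPneg-lo and 1.57-fold lower in KO LSK GFPhi. No difference was called in the LK populations.

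WT arrays read 10.67, 10.69 and 10.70 in LSK GFPneg-lo and 10.43, 10.46 and 10.48 in LSK GFPhi. KO arrays of the same gates read 10.23, 9.93 and 9.86, and 9.78, 9.78 and 9.84. All KO arrays were below all WT arrays in both LSK gates. The differences were -0.68 ± 0.16 (95% interval -1.02 to -0.35, adjusted p = 0.0275) and -0.65 ± 0.16 (95% interval -0.99 to -0.32, adjusted p = 0.0197). Leaving out 1 array ended both calls. In LSK GFPneg-lo this held for each WT array and for KO replicates 2 and 3 (adjusted p = 0.07 to 0.15), and in LSK GFPhi for each of the 6 arrays (0.057 to 0.071).

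In LK GFPneg the Notch2 arrays read 10.49, 10.73 and 10.18 in WT and 10.16, 10.45 and 10.12 in the KO, and the groups overlapped. In LK GFPhi they read 10.03, 10.43 and 10.08 in WT and 9.41, 9.80 and 10.15 in the KO, where replicate 3 lay inside the WT range. The LK GFPhi difference was -0.39 ± 0.16 (adjusted p = 0.135), and without KO LK GFPhi replicate 3 it was -0.58 (adjusted p = 0.036). With each array centred on its median it was -0.52 (adjusted p = 0.03). Among the WT populations, LK GFPhi was lower than LSK GFPneg-lo by 0.51 on the log2 scale (-0.51 ± 0.16, adjusted p = 0.0428). That call was lost on leaving out any of 5 of the 6 arrays (adjusted p = 0.093 to 0.18). The other Notch2 probe set, 1451889_at, stayed between 5.88 and 6.48 on all arrays, with KO differences of -0.09, -0.01, 0.13 and 0.28 and none called. Averaging both probe sets gave -0.39 (adjusted p = 0.11) and -0.33 (0.14) in the LSK gates, which ended both calls. Whether 1451889_at stands above background was not tested, and averaging with a flat probe set shrinks any difference by itself.

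Granulocyte and monocyte markers moved in the LSK gates where Notch2 was lower. Their mean was 9.67 to 10.45 in KO LSK GFPneg-lo against 8.99 to 9.41 in WT (3 of 6 called higher), and 11.64 to 11.79 against 10.72 to 10.96 in LSK GFPhi (2 of 6). The 3 were Prtn3, Ctsg and Csf1r, and the 2 were Ctsg and Csf1r. Other lists moved in these gates as well. In LSK GFPneg-lo and LSK GFPhi, 4 and 4 of 8 endothelial and 2 and 3 of 6 megakaryocyte markers were higher and 0 lower. All 7 early lymphoid markers were lower in LSK GFPhi and 1 in LSK GFPneg-lo. The part of these markers in the Notch2 result was not tested.

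Notch3 (chromosome 17, 32120820 to 32166896), a receptor studied in thymocytes and vascular smooth muscle, was flat. Its probe set read 5.86 to 6.30 on all 24 arrays, the KO differences ran from -0.01 to 0.19, and none was called. The 95% intervals over the 4 populations lay between -0.23 and 0.40. The other Notch3 probe set, 1421964_at, read 5.27 to 5.98, with KO differences of -0.12 to 0.26 and none called. Whether the signals of either probe set stand above background was not tested.

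Rbpj (chromosome 5, 53555779 to 53657445), the factor through which all Notch receptors reach DNA, varied little. Its WT group means spanned 0.36 and its KO group means 0.30 on the log2 scale. The KO differences in LSK GFPneg-lo, LSK GFPhi and LK GFPneg were -0.16, -0.09 and -0.10, each ± 0.13.

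In LK GFPhi the 3 arrays read 11.09, 10.83 and 10.93 in WT and 10.73, 10.35 and 10.55 in the KO, without overlap. The difference of -0.41 ± 0.13 fell just short of the call (adjusted p = 0.0538). Same-numbered arrays deviated together here. With the replicate block, where the pairing of KO replicate 3 is uncertain, the adjusted p was 0.0065. The call was also gained with the mean of the gene's probe sets (0.0053), array weights (0.011) and centring (0.027), and without WT LK GFPhi replicate 2 (0.049) or KO LK GFPhi replicate 1 (0.029). Of the other probe sets, 1448957_at read 9.94, 9.43 and 9.72 in WT and 9.23, 8.89 and 9.28 in the KO, which was called over all probe sets (-0.57 ± 0.14, adjusted p = 0.0176). The probe set 1418114_at read 8.89, 8.73 and 8.68 in WT and 8.26, 8.67 and 8.19 in the KO (-0.40 ± 0.16, adjusted p = 0.13). Thus KO arrays lay below WT arrays in LK GFPhi on all 3 Rbpj probe sets. Between WT populations, LK GFPneg was below LSK GFPneg-lo (-0.36 ± 0.13, adjusted p = 0.0453). That call was lost on leaving out any 1 of the 6 arrays (adjusted p = 0.058 to 0.14), and with the mean of the probe sets the difference was 0.01. LK GFPhi minus LK GFPneg, 0.32 ± 0.13, was not called (adjusted p = 0.11), and with the replicate block, where arrays pair, it was (adjusted p = 0.021).

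Nrarp (chromosome 2, 25180758 to 25183339) encodes a small ankyrin repeat protein that is induced by Notch and binds and restrains the Notch transcription complex. It was called higher in the KO in both GFPhi gates, where Notch1 was called lower, and in both LSK gates, where Notch2 was called lower. In LK GFPneg none of these genes was called. The rise was 1.92-fold in LK GFPhi and 1.59-fold in both LSK gates. In WT its mean was highest in LK GFPneg, where that of Notch1 was lowest, and lowest in LK GFPhi.

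WT arrays read 8.69, 8.84 and 8.82 in LSK GFPneg-lo, 8.22, 8.45 and 8.16 in LSK GFPhi, 8.90, 9.03 and 9.19 in LK GFPneg, and 8.03, 7.85 and 7.46 in LK GFPhi. KO arrays read 9.30, 9.51 and 9.54, then 8.82, 8.97 and 9.05, then 9.30, 9.28 and 9.94, and 8.52, 8.59 and 9.05 in the same order. On this probe set, 1417985_at, all KO arrays were above all WT arrays in each of the 4 populations. The order of its population means was the same in both genotypes, from LK GFPneg through LSK GFPneg-lo and LSK GFPhi to LK GFPhi.

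In LK GFPhi the KO rise was 0.94 ± 0.17 (95% interval 0.58 to 1.30, adjusted p = 0.00128), and it was called in 14 of 15 alternatives. The exception was a fit of those 2 groups alone (adjusted p = 0.067). With the mean of both probe sets the rise was 0.61 (adjusted p = 0.0012). In LSK GFPneg-lo the rise was 0.67 ± 0.17 (adjusted p = 0.0474), and leaving out any 1 of the 6 arrays ended the call (adjusted p = 0.059 to 0.2). In LSK GFPhi it was 0.67 ± 0.17 (adjusted p = 0.0254), and the call was lost without WT replicate 1 or 3 or KO replicate 2 or 3 (0.09 to 0.12). Centring each array on its median ended both LSK calls (adjusted p = 0.083 and 0.051), and the mean of both Nrarp probe sets ended the LSK GFPhi call (0.37, adjusted p = 0.065). In LK GFPneg the difference of 0.47 ± 0.17 was not called (adjusted p = 0.245), and with the mean of the probe sets it was 0.42 and called (adjusted p = 0.048).

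The other Nrarp probe set, 1417986_at, gave KO differences of 0.32, 0.07, 0.38 and 0.29, each ± 0.11, from LSK GFPneg-lo to LK GFPhi. None was called (adjusted p = 0.2, 0.99, 0.089 and 0.098). On this probe set the genotypes overlapped in LSK GFPhi (8.31 to 8.59 in WT, 8.43 to 8.68 in the KO). The order of its population means below LK GFPneg differed between the genotypes. Between the WT populations, Nrarp was lower in LK GFPhi than in LSK GFPneg-lo (-1.004 ± 0.17, adjusted p = 0.000362) and than in LK GFPneg (-1.26 ± 0.17, adjusted p = 1.23e-05). It was lower in LSK GFPhi than in LK GFPneg (-0.76 ± 0.17, adjusted p = 0.00187). With the mean of both probe sets these differences were -0.57, -0.77 and -0.44, all still called. Its neighbours in the order did not differ by a call, with -0.51 for LSK GFPhi minus LSK GFPneg-lo (adjusted p = 0.124), -0.50 for LK GFPhi minus LSK GFPhi (0.12) and 0.26 for LK GFPneg minus LSK GFPneg-lo (0.332).

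Endothelial markers were higher in the same KO groups, 4 of 8 in LSK GFPneg-lo, 4 in LSK GFPhi and 5 in LK GFPhi (where 1 was lower), against 1 in LK GFPneg. Their mean was 7.55 to 7.93 in KO LK GFPhi and 6.36 to 6.54 in WT. Megakaryocyte markers were higher in the same 3 groups, 2 of 6 in LSK GFPneg-lo, 3 in LSK GFPhi and 3 in LK GFPhi, and in LK GFPneg 0 were higher and 1 was lower. Their mean was 8.40 to 9.11 against 7.20 to 7.50 in LSK GFPhi and 8.52 to 9.29 against 7.13 to 7.79 in LK GFPhi. Granulocyte and monocyte markers were also called higher in these 3 groups (3, 2 and 1 of 6, with 0 lower). The part of any of these marker lists in the Nrarp rise was not tested.

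**Figure D2:**
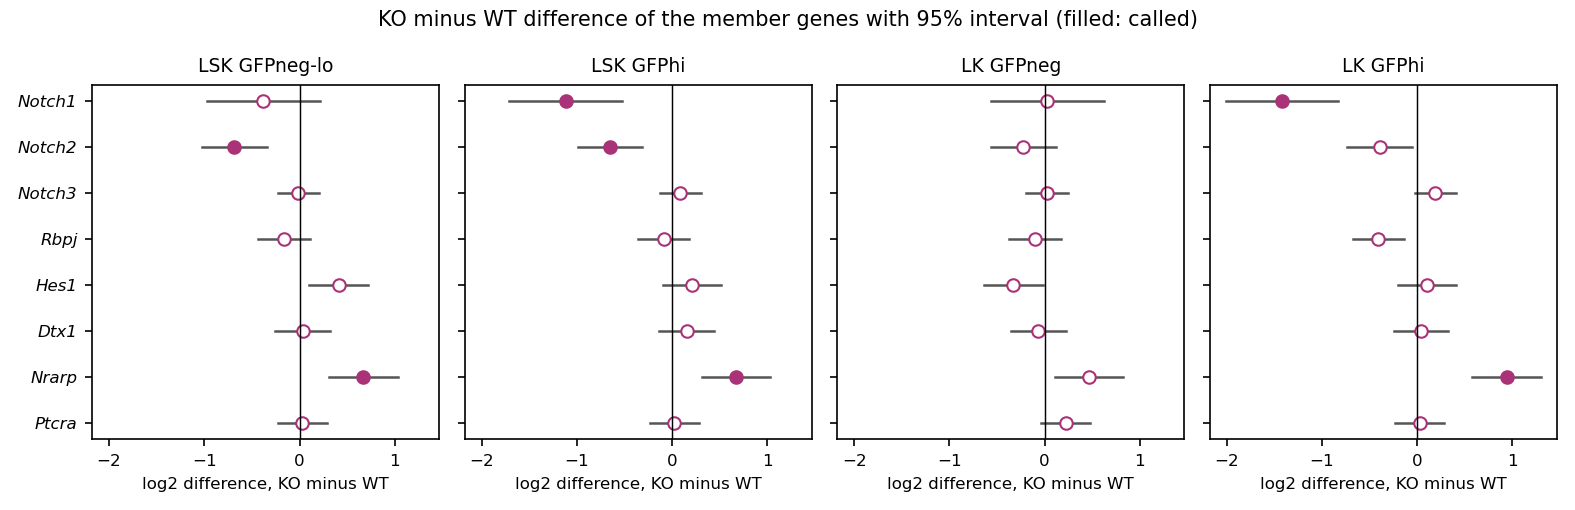
KO minus WT difference in log2 signal (x axis) for each of the 8 genes, 1 panel per population, with 95% intervals from limma; filled points mark called differences. Notch1 and Nrarp lie on opposite sides of 0 in both GFPhi populations, at -1.42 and 0.94 in LK GFPhi, while the Dtx1 and Ptcra differences lie between -0.07 and 0.22.

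Hes1 (chromosome 16, 30065357 to 30067796), a helix-loop-helix repressor and the most widely used Notch target, was not called in any comparison of the fit reported. With the block, where same-numbered arrays deviated together, its WT level in LK GFPneg was called higher than in LSK GFPneg-lo (0.36, adjusted p = 0.032) and than in LSK GFPhi (-0.37 for LSK GFPhi minus LK GFPneg, adjusted p = 0.027). WT arrays read 6.06, 6.00 and 5.90 in LSK GFPneg-lo and 6.40, 6.37 and 6.27 in LK GFPneg, and KO arrays read 6.497, 6.45 and 6.24, and 5.91, 6.26 and 5.90. KO arrays were thus all above WT in LSK GFPneg-lo (0.41 ± 0.15, adjusted p = 0.227) and all below WT in LK GFPneg (-0.33 ± 0.15, adjusted p = 0.438). The 2 differences were compared directly (-0.74 ± 0.21, adjusted p = 0.142) and the contrast was not called in the fit reported. It was called with array weights (adjusted p = 0.014) and with the replicate block (0.043), although arrays did not count as paired in this contrast. In LSK GFPhi WT arrays read 6.10, 6.21 and 5.62 against 6.38, 6.17 and 6.01. In LK GFPhi they read 6.18, 6.27 and 6.02 against 6.36, 6.00 and 6.42, and both pairs of groups overlapped.

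Dtx1 (chromosome 5, 120680203 to 120711867) encodes Deltex 1, an E3 ubiquitin ligase that is a Notch target and modulates receptor traffic. Its probe set 1425822_a_at read 6.57 to 7.25 on all arrays, and the KO differences ran from -0.07 to 0.16 (95% intervals within -0.36 to 0.44). The second probe set, 1458643_at, read 6.03 to 6.62, and was called in 1 WT comparison over all probe sets, higher in LSK GFPhi than in LK GFPneg by 0.32 (adjusted p = 0.042, where 22.8% of all probe sets were called).

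Ptcra (chromosome 17, 46755663 to 46763712) encodes the pre-T cell receptor alpha chain, a Notch target of early thymocytes. It read 6.18 to 6.88 on all arrays, with KO differences of 0.03 to 0.22 and 95% intervals within -0.23 to 0.48. No difference of Hes1, Dtx1 or Ptcra was called in a KO comparison. Their probe sets read between 5.62 and 7.25 on a table that starts at 3.33, no detection calls were used here, and whether these signals stand above background was not tested.

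**Figure D3:**
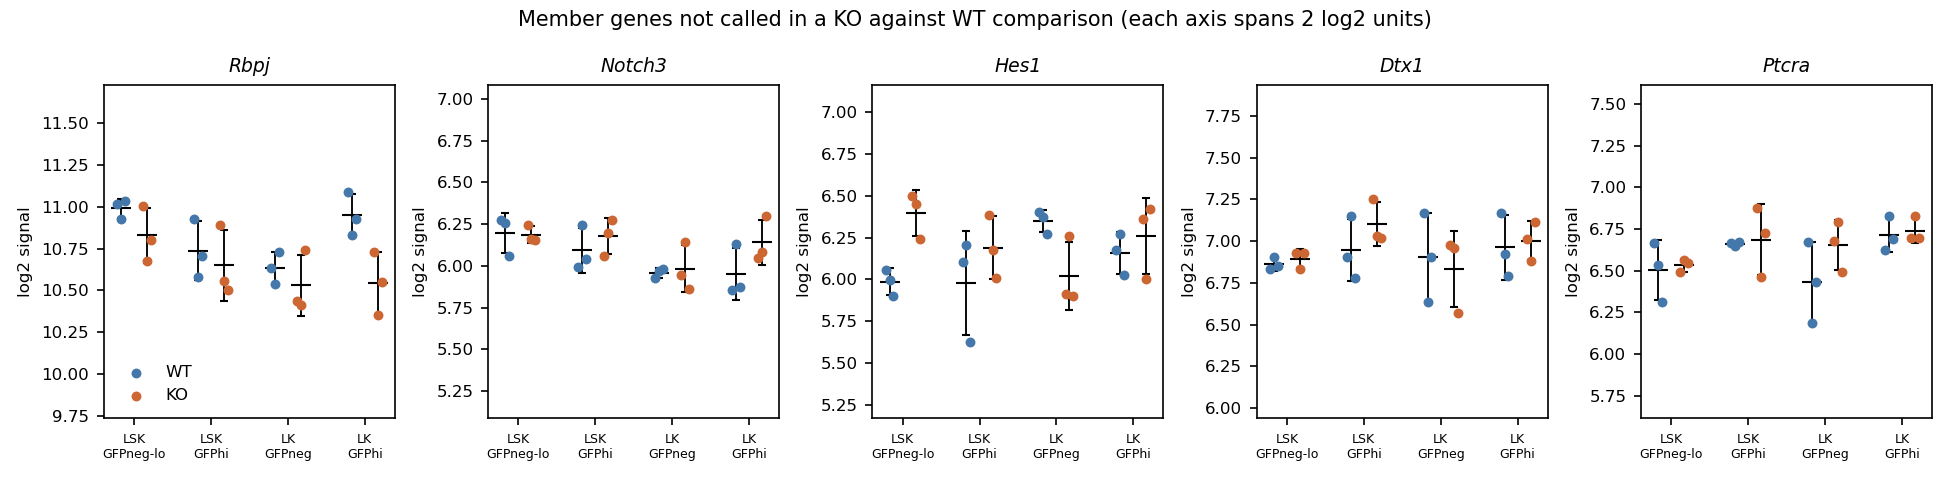
Log2 signal of Rbpj, Notch3, Hes1, Dtx1 and Ptcra on every array, by population, with WT in blue and KO in orange; points are arrays, wide bars the group means and error bars 1 SD (n = 3), and each axis spans 2 log2 units. Notch3, Hes1, Dtx1 and Ptcra lie between 5.62 and 7.25, and the KO arrays of Rbpj lie below the WT arrays in LK GFPhi.

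Over the 8 genes, 2 were called in LSK GFPneg-lo (Notch2 lower, Nrarp higher), where 2.14% of all genes were called, and 3 in LSK GFPhi (Notch1 and Notch2 lower, Nrarp higher), where 4.6% were. None was called in LK GFPneg, where 2.65% of all genes were. There 2 of the 8 had an unadjusted p below 0.05, as did 1851 of all 18193 genes. In LK GFPhi 2 were called (Notch1 lower, Nrarp higher) against 9.56% of all genes. The median KO difference of the 8 genes was 0.01, 0.06, -0.02 and 0.03 in this order, beside 0.03, 0.01, 0.04 and 0.07 for all genes. Of the 15 probe sets, 1, 3, 0 and 3 were called, where 1.49%, 3.05%, 1.6% and 8.79% of all probe sets were. With Eif2s3y as a covariate none of the 8 genes was called in the LSK gates, while Notch1 (-1.35, adjusted p = 0.015) and Nrarp (0.93, adjusted p = 0.0066) were called in LK GFPhi. Eif2s3y moved with the genotype, so this covariate takes up part of the KO difference itself. Calls lost with it therefore cannot tell the 2 apart. Between WT populations the counts were 1 of 8 for LSK GFPhi minus LSK GFPneg-lo (4.52% of all genes), 2 for LK GFPneg minus LSK GFPneg-lo (27.1%) and 3 for LK GFPhi minus LSK GFPneg-lo (12.6%). They were 0 for LK GFPhi minus LSK GFPhi (4.55%), 2 for LSK GFPhi minus LK GFPneg (29.1%) and 2 for LK GFPhi minus LK GFPneg (18.6%). With the replicate block they were 3 each for LK GFPneg minus LSK GFPneg-lo, LSK GFPhi minus LK GFPneg and LK GFPhi minus LK GFPneg (35.9%, 38.7% and 25.9% of all genes), and unchanged in number in the other 3 WT comparisons. In KO LK GFPhi the block gave 3 members, with Rbpj, where it called 22.2% of all genes. No member was called in the 4 contrasts between KO differences. Of all genes, 0.313% were called for LSK GFPhi minus LSK GFPneg-lo, 2.5% for LK GFPhi minus LK GFPneg, 0.143% for LK GFPhi minus LSK GFPhi and 0.808% for LK GFPneg minus LSK GFPneg-lo. Below an unadjusted p of 0.05 there was 1 member in the second of these (Notch1) and 1 in the last (Hes1), and 0 in the other 2.

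**Figure D4:**
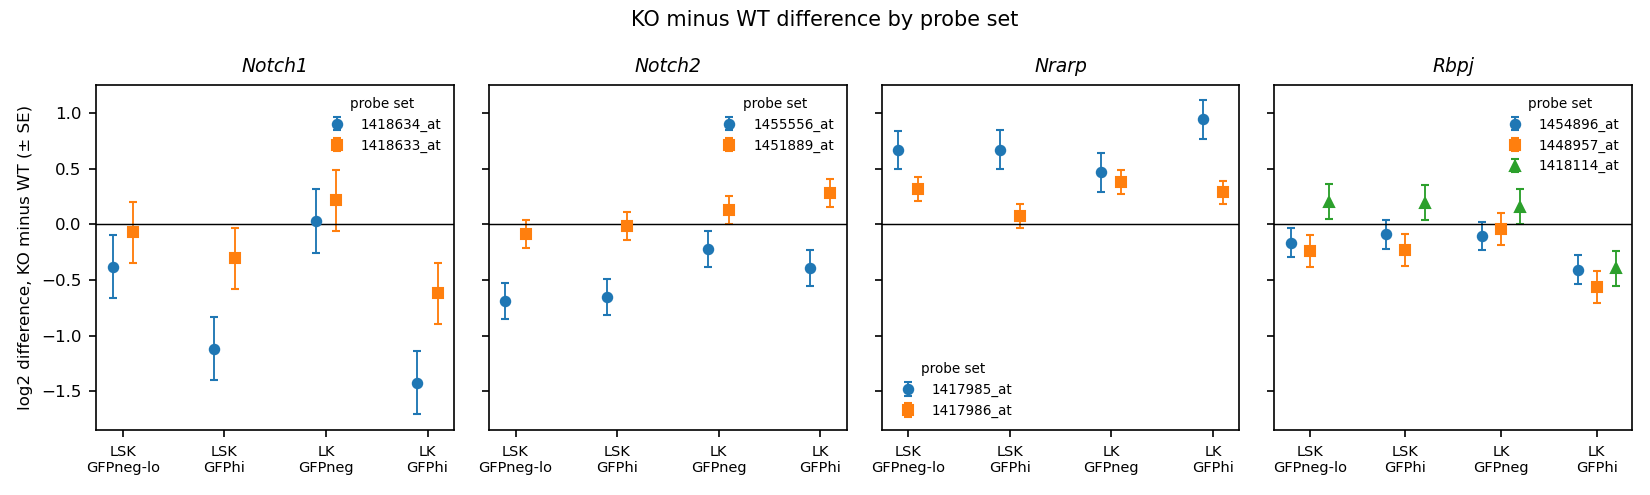
KO minus WT difference in log2 signal, with its standard error, for each of the 9 probe sets of Notch1, Notch2, Nrarp and Rbpj in each population, from the fit over all probe sets. The second probe sets of Notch1, Notch2 and Nrarp show smaller differences than the first in both GFPhi populations, and all 3 Rbpj probe sets lie below 0 in LK GFPhi, at -0.41, -0.57 and -0.40.

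A list of 65 further pathway genes, of which 59 were measured, shows what else of the pathway changed. In LSK GFPneg-lo and LK GFPneg 0 of 59 were called, in LSK GFPhi 1 (1.69%) and in LK GFPhi 4 (6.78%, 1 higher and 3 lower), close to or below the shares of all genes above. The median difference in LK GFPhi was 0.04, beside 0.07 for all genes. With the replicate block, where same-numbered arrays deviated together, the counts were 2 of 59 in LSK GFPneg-lo, 5 in LK GFPneg and 14 in LK GFPhi (3.39%, 8.47% and 23.7%), beside 4.64%, 4.88% and 22.2% of all genes.

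Among ligands (Dll1, Dll3, Dll4, Jag1, Jag2), the receptor Notch4, the 8 measured genes of receptor cleavage and the 5 of receptor glycosylation, none was called in a KO comparison. Tle4, a Groucho-type co-repressor used by Hes proteins, was lower in KO LK GFPhi. It read 10.52, 10.43 and 10.62 in WT and 9.70, 9.24 and 9.66 in the KO, a 1.99-fold fall (-0.99 ± 0.21, adjusted p = 0.00381) that was called in all 15 alternatives. With the mean of its probe sets the fall was smaller (-0.49, adjusted p = 0.0045). Numb, an adaptor that directs Notch receptors to endocytosis, was higher in KO LSK GFPhi, at 10.12, 10.20 and 10.12 against 9.77, 9.72 and 9.98 (0.32 ± 0.07, adjusted p = 0.0133). It was also higher in KO LK GFPhi, at 10.06, 10.11 and 10.06 against 9.79, 9.72 and 9.85 (0.29 ± 0.07, adjusted p = 0.0175). Ep300, the histone acetyltransferase recruited by Mastermind, was lower in KO LK GFPhi, at 10.54, 10.17 and 9.98 against 10.80, 10.84 and 10.85 (-0.60 ± 0.17, adjusted p = 0.026). Hes6, an inhibitor of Hes1, was lower there, at 9.24, 9.49 and 9.14 against 9.64, 10.22 and 9.91 (-0.63 ± 0.19, adjusted p = 0.0432). Groups did not overlap for any of these genes, but they were named because they were called, so this adds no support. Other settings ended these calls too. The mean of Numb's probe sets gave 0.07 in LSK GFPhi (adjusted p = 0.83), and centring gave Numb 0.26 there (0.077) and 0.16 in LK GFPhi (0.24). A fit of the compared groups alone ended the calls of Numb (0.23 and 0.18), Ep300 (0.11) and Hes6 (0.13). The Eif2s3y covariate ended those of Numb in LSK GFPhi (0.058), Ep300 (0.063) and Hes6 (0.091), and quantile normalization those of Ep300 (0.058) and Hes6 (0.093). Hes6 was also lost without probe sets ending in _x_at and _s_at (0.11) and with array weights (0.055). Leaving out 1 array ended the Numb calls for 3 of 6 arrays in each gate (adjusted p = 0.073 to 0.082 in LSK GFPhi, 0.053 to 0.063 in LK GFPhi), the Ep300 call for 5 of 6 (0.053 to 0.14) and the Hes6 call for 4 of 6 (0.082 to 0.16).

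The genes most like each member over the 24 arrays, by Pearson r across all genes, are given as a description, since arrays of a group share their cells. Notch1 ran with Macroh2a1 (r = 0.956), Flt3 (0.954) and Satb1 (0.950), the second a cytokine receptor of lymphoid-primed progenitors and the third a chromatin organiser of lymphoid cells. Nrarp ran with Gadd45g (0.920), Prnp (0.893) and Dmd (0.891). Rbpj ran with Apc (0.881), Wdr26 (0.852) and Ythdf3 (0.851). Notch2 had lower values, with Dnah8 (0.795), Ptpdc1 (0.781) and Irf9 (0.780). The closest genes for the others were Ptpn23 for Notch3 (0.882), Vwa5b2 for Dtx1 (0.812), Ceacam18 for Ptcra (0.771) and Mapk10 for Hes1 (0.642).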

How the data were processed

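The 24 one-colour arrays were summarised by the authors with RMA (per the submitters' processing notes, with no version given in the sources used here) into deposited log2 signals, which run from 3.33 to 14.5. Biotinylated cRNA came from 6 ug of Trizol-extracted total RNA, per the labels' protocols. Of 45101 probe sets, 64 controls were left out. Among the 34945 with 1 gene symbol (932 had several, 9160 none), each gene was represented by its probe set of highest mean, which gave 18193 genes. All columns of per-sample values were used. Nothing was filtered for low signal in the fit reported, so all 8 members were tested.

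limma 3.58.1 in R 4.3.3 (lmFit, eBayes) was fitted once to 8 group means, with 16 residual and 3.27 prior degrees of freedom, and again over 45037 probe sets. Tests are two-sided. An exact permutation test of 3 against 3 arrays cannot go below 0.1. The steps were tested on simulated data. The number of arrays limits the precision.

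The members and lists were chosen with earlier results of these data known. All members were named, and of the pathway list those called in a KO comparison. For likeness the 3 genes with the highest r were taken. Gene positions and promoters are RefSeq's on GRCm38.p6.

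Replicate numbers in the titles were taken to pair arrays where every same-numbered pair had residuals correlated above 0.1. The lowest r was 0.276, 0.359 and 0.175 for KO minus WT in LSK GFPneg-lo, LK GFPneg and LK GFPhi. It was 0.171 to 0.582 for the 6 WT comparisons and 0.169 for the LK contrast, so these counted as paired. The fit reported has no block and does not use this pairing, which enters only the alternative with the replicate block. A WT and a KO array of the same number come from different mice. On KO replicate 3 Eif2s3y read 7.74 in LK GFPhi. It read 4.01, 4.13 and 4.14 in LSK GFPneg-lo, LSK GFPhi and LK GFPneg. That number may thus not mark the same animals, and block results with KO LK GFPhi rest on an uncertain pairing. Alternatives were the compared groups alone, the replicate block, 2 probe set filters, the mean of a gene's probe sets, array weights, quantile normalization, median centring, Eif2s3y as a covariate and each array left out.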

Additional observations from a re-analysis of the deposited data

How the results depend on the processing

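Of 869 single-gene values recomputed under alternatives, 759 kept direction and side of the threshold, 87 lost a call, 16 gained one, 6 moved without a call and 1 reversed. The reversed one was Rbpj in WT LK GFPneg minus LSK GFPneg-lo, 0.0133 (adjusted p = 0.95) with the mean of its probe sets, whose values differ there. In paired comparisons the replicate block changed the member calls given above (Notch1 in the LK contrast, Rbpj in KO LK GFPhi and in WT LK GFPhi minus LK GFPneg, Hes1 in WT LK GFPneg against both LSK populations) and no other. In unpaired comparisons it gave KO minus WT in LSK GFPhi the same 3 members (lowest r = 0.0238), and Hes1 was called in the LK GFPneg minus LSK GFPneg-lo contrast (adjusted p = 0.043). The array medians that centring removes differed by 0.125 in KO minus WT in LK GFPhi, by 0.106 in the LK contrast, and by -0.1697 for LK GFPneg minus LSK GFPneg-lo, 0.166 for LSK GFPhi minus LK GFPneg and 0.107 for LK GFPhi minus LK GFPneg in WT. The cause of changed counts was not tested.

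Members called in LSK GFPneg-lo were 1 with the compared groups alone, the mean of probe sets or centring and 0 with the Eif2s3y covariate. In LSK GFPhi they were 0 with the mean of probe sets or the covariate, in LK GFPneg 1 with the mean of probe sets, and in LK GFPhi 1 with the compared groups alone and 4 with centring. The number of all genes called moved over these settings too. It ran from 199 to 1120 in LSK GFPneg-lo, 499 to 1367 in LSK GFPhi, 209 to 1210 in LK GFPneg and 491 to 4034 in LK GFPhi. Between WT populations array weights gave 2 for LSK GFPhi minus LSK GFPneg-lo and 1 for LK GFPhi minus LSK GFPhi, the mean of probe sets or the covariate gave 1 for LK GFPneg minus LSK GFPneg-lo, and quantile normalization gave 4 for LSK GFPhi minus LK GFPneg. Over the settings all genes called in these 4 comparisons ran from 598 to 1471, 149 to 2443, 4778 to 7683 and 5090 to 7037. The LK contrast gave 1 with the block, weights or centring, and the LK GFPneg minus LSK GFPneg-lo contrast 1 with the block or weights. All genes called over the settings ran from 281 to 935 and from 125 to 441 in these 2 contrasts. Leaving out 1 array gave members called of 0 to 1 in LSK GFPneg-lo, 0 to 1 in LSK GFPhi, 0 in LK GFPneg and 2 to 3 in LK GFPhi. Between WT populations it gave 0 to 1 for LSK GFPhi and 1 for LK GFPneg, both minus LSK GFPneg-lo, 1 to 3 for LK GFPhi minus LSK GFPneg-lo, and 2 to 3 for each GFPhi population minus LK GFPneg. It gave 0 to 1 for the LK contrast and 0 for the other 3 contrasts. With 1 array left out, all genes called for KO minus WT were 232 to 357 in LSK GFPneg-lo and 570 to 715 in LSK GFPhi. They were 293 to 468 in LK GFPneg and 1060 to 2087 in LK GFPhi.

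Of the pathway list, LSK GFPneg-lo gave 2 with the block and 5 with weights. LSK GFPhi gave 0 with the compared groups alone, centring or the covariate, 2 with the mean of probe sets or quantile normalization, 4 with weights and 5 with the block. LK GFPneg gave 5 with the block, 2 with the mean of probe sets, 6 with weights and 1 with quantile normalization. LK GFPhi gave 1 with the compared groups alone, 14 with the block, 12 with the mean of probe sets or weights and 2 with the covariate. These counts are read beside all genes called, which ran from 491 to 4034 in LK GFPhi over the same settings. With the block 23.7% of the list and 22.2% of all genes were called there. Leaving out 1 array gave 0 to 2 in LSK GFPhi, 0 to 1 in LK GFPneg and 2 to 3 in LK GFPhi. The filter on the dimmest 40% of probe sets kept 12941 genes and removed Notch3.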

Other observations

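Between WT populations a few genes of the pathway list are named here after their values were seen. Dtx4, a Deltex ubiquitin ligase, had mean log2 signals of 9.02 (LSK GFPneg-lo), 10.32 (LSK GFPhi), 11.06 (LK GFPhi) and 9.19 (LK GFPneg). It was higher in LK GFPhi than in LSK GFPneg-lo (2.04 ± 0.19, adjusted p = 3.42e-07), in LSK GFPhi than in LSK GFPneg-lo (1.30 ± 0.19, adjusted p = 0.000198) and in LK GFPhi than in LSK GFPhi (0.74 ± 0.19, adjusted p = 0.0311). Gata3, a transcription factor that Notch induces in T cell progenitors, was higher in LSK GFPneg-lo (6.17) than in LSK GFPhi (5.39, adjusted p = 0.0388), LK GFPneg (4.87, adjusted p = 9.54e-05) and LK GFPhi (5.20, adjusted p = 0.00366). Its group means over both genotypes ran from 4.46 to 6.26 on a table that starts at 3.33, and whether they stand above background was not tested. Igf1r, a growth factor receptor that Notch1 induces in T cell leukaemia, was lower in LSK GFPhi than in LSK GFPneg-lo (-0.88 ± 0.21, adjusted p = 0.017) and in LK GFPhi than in LSK GFPneg-lo (-1.01 ± 0.21, adjusted p = 0.00252). Of the 59 measured genes, 3 (5.08%) were called for LSK GFPhi, 14 (23.7%) for LK GFPneg and 11 (18.6%) for LK GFPhi, each minus LSK GFPneg-lo, where 4.52%, 27.1% and 12.6% of all genes were. The counts were 2 (3.39%) for LK GFPhi minus LSK GFPhi, 17 (28.8%) for LSK GFPhi minus LK GFPneg and 12 (20.3%) for LK GFPhi minus LK GFPneg, beside 4.55%, 29.1% and 18.6%. With the replicate block, which these comparisons pair, the counts in the same order were 6, 22, 19, 12, 24 and 17 of 59 (10.2%, 37.3%, 32.2%, 20.3%, 40.7% and 28.8%), beside 8.09%, 35.9%, 21.1%, 13.4%, 38.7% and 25.9% of all genes.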
